A study of Homo sapiens with 6 samples.

Results

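Antiviral interferon-stimulated genes (ISGs) were examined in HaCaT keratinocytes with and without FGFR2, as a set of 56 effector genes chosen by symbol. Their Ensembl identifiers were found through GENCODE, and all 56 were present among the 21475 genes of the deposited tables. OAS genes, nucleic acid sensors outside the set, signaling genes and MHC genes were kept apart. HaCaT is a spontaneously immortalized, nontumorigenic human keratinocyte line. RNA was sequenced from 3 WT and 3 *FGFR2* KO lines, 1 library per line. The cells were grown in serum-containing medium, and the labels name no cytokine, nucleic acid or FGF treatment for any library. The KO lines carry a Cas9-induced disruption of exon 7 of *FGFR2* and were each expanded from a sorted cell, so that a difference between clones and a difference between genotypes can only be separated by the 3 lines of each group. The WT lines of the study comprise the parental population and expanded WT clones. Where the paper plots FGF receptor levels from the HaCaT libraries of this series, it describes them as 3 lines obtained by clonal expansion. The labels do not say which clone each library comes from.

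Type I and type III interferons bind their receptors and activate JAK kinases. These act through the transcription factor complex ISGF3, which binds the interferon-stimulated response element (ISRE) in the promoters of ISGs. The proteins made from these genes bind viral RNA, block viral entry, degrade or modify viral components, or modify other proteins with the ubiquitin-like protein ISG15. Keratinocytes keep many ISGs at a low constitutive level, and in inflamed skin a number of them are raised.

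The promoters of 6 members are shown first, to show how the element recurs in them. They belong to the 8 members with an unadjusted p and fold change past the minimum described further on, except *USP18* and *GBP2*, for which no window was given. The core of the ISRE is a short purine-rich unit repeated after a gap of fixed length, in which any base is allowed. It was searched on both strands in RefSeq promoter windows of GRCh38.p14, which reach from 250 bases before to 50 bases after the annotated start. A window was given for 45 of the 56 members. Of these, 33 (73.3%) held the core at least once, against 4.38% of all 27305 genes with a window. The sequences below are the 200 bases before the start, read in the direction of the gene, with each match in capitals. Neighbouring matches that share bases appear as 1 longer run, as in *ISG15* and *HERC5*.
*ISG15*, chr1:1013297-1013496, plus strand: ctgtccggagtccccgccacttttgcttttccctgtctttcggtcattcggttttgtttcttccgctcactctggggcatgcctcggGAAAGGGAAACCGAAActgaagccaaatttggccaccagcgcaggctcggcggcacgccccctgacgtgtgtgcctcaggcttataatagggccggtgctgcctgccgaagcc
*HERC5*, chr4:88456919-88457118, plus strand: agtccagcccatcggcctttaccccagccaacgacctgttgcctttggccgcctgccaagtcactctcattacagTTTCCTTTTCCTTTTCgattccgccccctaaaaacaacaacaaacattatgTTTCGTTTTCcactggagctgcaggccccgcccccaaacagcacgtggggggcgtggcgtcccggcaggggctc
*IFI6*, chr1:27672193-27672392, minus strand: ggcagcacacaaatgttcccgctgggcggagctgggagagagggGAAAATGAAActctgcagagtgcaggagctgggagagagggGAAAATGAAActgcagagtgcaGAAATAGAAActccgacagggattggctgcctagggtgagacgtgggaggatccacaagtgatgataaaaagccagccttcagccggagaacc
*DDX60*, chr4:168318753-168318952, minus strand: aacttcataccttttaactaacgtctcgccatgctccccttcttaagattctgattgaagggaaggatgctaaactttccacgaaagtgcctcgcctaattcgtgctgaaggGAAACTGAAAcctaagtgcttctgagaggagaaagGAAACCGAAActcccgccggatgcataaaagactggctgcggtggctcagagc
*GBP1*, chr1:89065209-89065408, minus strand: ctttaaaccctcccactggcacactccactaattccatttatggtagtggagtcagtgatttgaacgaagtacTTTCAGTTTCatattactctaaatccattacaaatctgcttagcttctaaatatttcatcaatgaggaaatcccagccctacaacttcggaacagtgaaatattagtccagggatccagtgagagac
*IFI27*, chr14:94110536-94110735, plus strand: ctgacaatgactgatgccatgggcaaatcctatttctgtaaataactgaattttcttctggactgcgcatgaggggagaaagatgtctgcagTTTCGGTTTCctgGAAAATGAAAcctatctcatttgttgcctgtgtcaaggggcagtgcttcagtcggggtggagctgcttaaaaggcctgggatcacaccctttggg
The *ISG15* matches begin 113 and 107 bases before the start, and those of *DDX60* 88 and 53 bases before its own. *IFI6* had 3 matches in this stretch, *HERC5* 3, *IFI27* 2 (both windows given for it hold them, and the stretch before the first start is shown) and *GBP1* 1. The RefSeq starts of *ISG15*, *IFI27*, *IFI6*, *DDX60* and *GBP1* lie inside the longer GENCODE gene models. The stretches shown for these genes are therefore wholly or partly within the models. A match describes the letters only. The 31 tested members with the core had a median log2 fold change (KO against WT) of 0.30 and the 12 tested members without it 0.23. All 6 members shown hold the core, and they include both a gene lower in KO (*IFI27*) and genes higher in KO.

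Levels are given as the deposited FPKM, a unit scaled to transcript length and to sequencing depth. Each library held about 67800000 to 88000000 fragments, estimated from the steps between low values, and at this depth 3 fragments on a transcript of 1 kb correspond to 0.0341 to 0.0443 FPKM. The values of a group are listed below in the order of its replicates. *FGFR2* itself measured 21.6, 39.7 and 15 FPKM in WT cells against 3.04, 2.26 and 4.31 FPKM after KO, which leaves 12.6% of the WT mean. The 12 keratinocyte markers looked at, among them *KRT5*, *KRT14* and *TP63*, lay between 104 and 14800 FPKM. Replicates are separate cell lines. In bulk RNA, fewer cells that express a gene and less RNA per cell cannot be told apart.

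In the 6 lines together, 4 members had a mean of at least 100 FPKM. These were *IFITM3* (350 FPKM), *LGALS3BP* (191 FPKM), *LY6E* (160 FPKM) and *IFITM2* (122 FPKM), which encode entry inhibitors, a secreted glycoprotein and a membrane-anchored protein. A further 25 members had 10 to 100 FPKM, 15 had 2 to 10 FPKM and 9 had 0.5 to 2 FPKM. The last class holds classical strongly inducible ISGs, such as *MX1*, *RSAD2*, *CMPK2* and *IFI6*. *MX2*, *IFI44L* and *BST2* had a mean under 0.5 FPKM and were not tested. *IFI44L* was at 0.0175 to 0.0531 FPKM, at or under about 3 fragments per kb in most libraries, while its neighbour *IFI44*, which begins 3.65 kb further along chromosome 1, reached 23.7 FPKM in KO replicate 2. *MX2* lay between 0.137 and 0.273 FPKM and *BST2* between 0.177 and 1.13 FPKM, the latter highest in WT replicate 2.

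The comparison of KO with WT asked whether loss of FGFR2 goes with a different constitutive level of these genes. The 12241 genes averaging 0.5 FPKM or more, among them 53 members, were tested with limma on log2(FPKM + 0.5), a scale on which fold changes of weakly expressed genes come out too small. No member was called, which took an adjusted p of 0.05 or less together with a log2 fold change of 0.5 or more in either direction, and the smallest adjusted p of a member was 0.261. The same held for all tested genes, of which 0 (0%) were called, while 2065 genes, 9 of them members, had an unadjusted p of 0.05 or less. The targeted gene *FGFR2* was not called either (log2 fold change -2.73, SE 0.36, adjusted p = 0.261). A gene not called here is therefore not shown to be unchanged. The authors, who tested with DESeq2, did report genes that differed between KO and WT, *FGFR2* and *ISG15* among them. Their RT-qPCR of unstimulated cells also found *ISG20*, *RSAD2* and the signaling gene *STAT2* significantly higher in KO. In that assay *ISG15* was higher without reaching significance. When the p-values were left unadjusted and the fold-change minimum was kept, 6 members were higher in KO (11.3% of the 53, against 10.2% of all tested genes) and 2 were lower (3.77% against 2.33%). These shares lie near those of all genes. The members higher in KO were *ISG15*, *USP18*, *HERC5*, *DDX60*, *IFI6* and *GBP1*, and those lower in KO were *GBP2* and *IFI27*.

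The 3 KO lines were each above the 3 WT lines in 10 members (18.9%, against 18.3% of all tested genes) and each below them in 1 member (1.89% against 5.77%). For a gene separated in this way, the two-sided exact permutation test gives p = 0.1, the smallest p possible with 3 lines against 3. The mean log2 value was higher in KO in 39 of 53 members (73.6%, against 60.6% of all tested genes). The median log2 fold change was 0.26 for the members and 0.09 for all tested genes. Mitochondrial genes took 27.6, 21.5 and 22.2% of the summed FPKM in WT and 15.8, 23.7 and 11.9% in KO, and with scaling to nuclear genes these medians were 0.19 and 0.01. The part of this difference in single genes was not tested. With median-of-ratios scaling, under which the median over all genes was -0.02 in place of 0.09, the members' median was 0.15 and 34 were higher. A single line moved this median further, to 0.42 without WT replicate 2 (46 members higher), 0.03 without WT replicate 3 (31 higher) and 0.09 without KO replicate 2 (32 higher). In the same fits the median of all tested genes was 0.11, 0.09 and 0.11, so that the members lay above it only without WT replicate 2. *HERC5*, *CMPK2*, *ISG20*, *IFI6*, *IFI27* and *RTP4* passed the expression filter only through the group in which they were higher, so that a difference was built into their being tested. Among the 47 members with at least 0.5 FPKM in both groups, 35 were higher (against 60.6% of all tested genes) and the median was 0.25. At the unadjusted threshold 4 were higher and 1 lower (against 10.2% and 2.33% of all tested genes). All KO lines were above the WT lines in 8 and below them in 0 (against 18.3% and 5.77% of all tested genes).

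**Figure D1:**
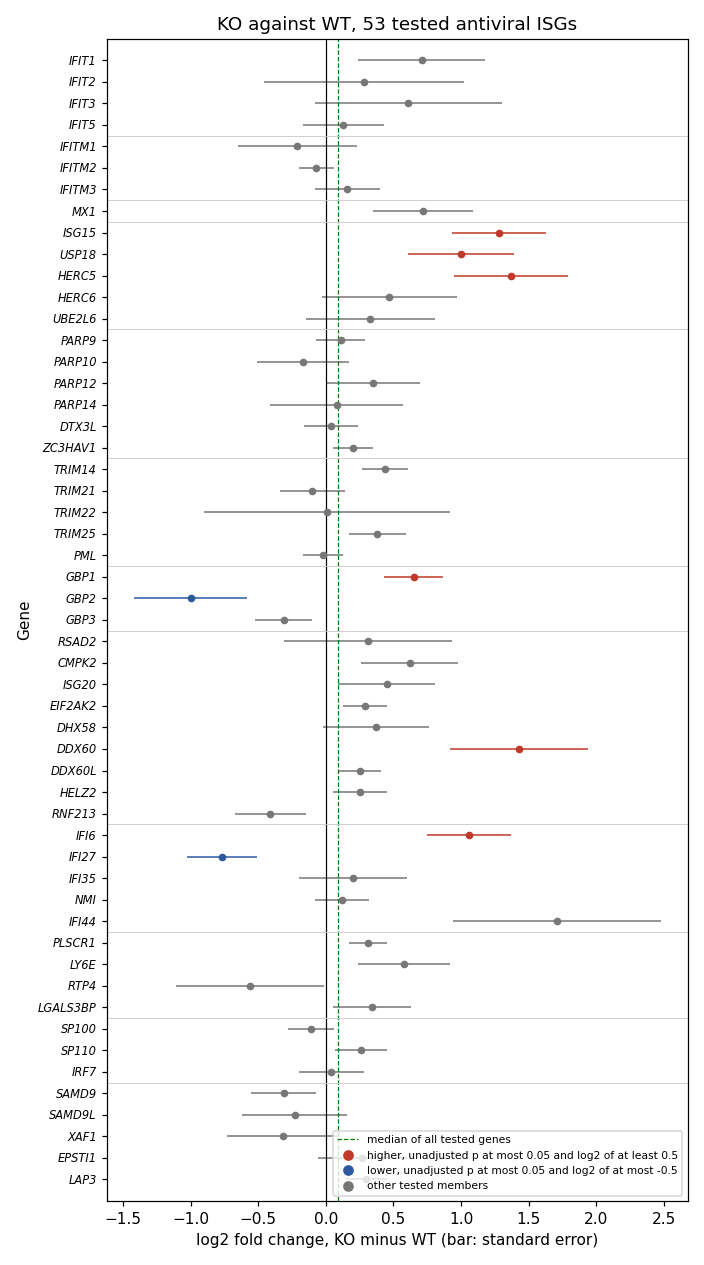
Log2 fold change (KO minus WT, x axis) of the 53 tested members (y axis, ordered by functional group), with the standard error as bars. Red and blue points mark the 6 higher and 2 lower members at an unadjusted p of at most 0.05, and the dashed line the median of all tested genes (0.09).

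The genes of ISG15 conjugation had the highest median of the groups with more than 1 tested member. ISG15 is attached to other proteins by a cascade that includes the E2 enzyme UBE2L6 and the ligase HERC5, and is removed again by the protease USP18, which also damps signaling at the interferon receptor. All 5 members of the group had a positive log2 fold change, also under the 4 other scalings tried, with a median of 1.0. Of the 5, 3 were past the unadjusted threshold, which 10.2% of all tested genes passed in this direction, and 1 of the 3, *USP18*, was not past it under 3 of the 4 scalings or with no expression filter. Another of the 3, *HERC5*, passed the expression filter only through the KO lines, so that a difference was built into its being tested. *ISG15* (ENSG00000187608, chromosome 1 from 1001138 to 1014540) was at 5.6, 6.23 and 4.57 FPKM in WT and at 10.6, 25.4 and 9.83 FPKM in KO. Every KO line lay above every WT line, and KO replicate 2 stood well above the other KO lines. The log2 fold change was 1.28 (SE 0.35, adjusted p = 0.261) and 0.85 without KO replicate 2.

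*HERC5* (ENSG00000138646, chromosome 4 from 88457119 to 88506163) was at 0.171, 0.0924 and 0.119 FPKM in WT and at 1.35, 2.19 and 0.360 FPKM in KO. The lines did not overlap, and the ratio of the means was 10.2. Its log2 fold change of 1.37 (SE 0.42, adjusted p = 0.261) is smaller than this ratio because of the pseudocount. *USP18* (ENSG00000184979, chromosome 22 from 18150118 to 18177397) was at 1.87, 1.05 and 4.42 FPKM in WT and at 4.43, 4.85 and 4.96 FPKM in KO. The KO lines were close to each other, but WT replicate 3 was only just under KO replicate 1, and the log2 fold change of 1.0 (SE 0.39, adjusted p = 0.277) was past the unadjusted threshold in 1 of 6 fits that left out a line. *USP18* has a near-identical copy, *USP41*, with which reads may be shared. *UBE2L6*, the most abundant gene of the group, had 24.5, 49.2 and 13.3 FPKM in WT and 20.8, 47.8 and 33 FPKM in KO, and these ranges overlapped (log2 fold change 0.33, SE 0.48, adjusted p = 0.734, and -0.12 without WT replicate 3). *HERC6*, the neighbour and relative of *HERC5*, had a mean of 2.62 ± 1.66 FPKM in WT against 3.79 ± 2.12 FPKM in KO (SD, n = 3), a difference within the spread.

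Of the IFI genes and their partners, *IFI6* (ENSG00000126709, chromosome 1 from 27666064 to 27672212), which encodes a small membrane protein of mitochondria and the endoplasmic reticulum, had 0.379, 0.542 and 0.398 FPKM in WT and 1.43, 2.39 and 0.846 FPKM in KO. Each KO line was above each WT line (log2 fold change 1.06, SE 0.31, adjusted p = 0.261). *IFI27* (ENSG00000165949, chromosome 14 from 94104836 to 94116695) belongs to the same family and was opposite in direction. It had 0.797, 1.25 and 0.804 FPKM in WT and 0.375, 0.483 and 0.199 FPKM in KO, and every KO line was lower (log2 fold change -0.77, SE 0.26, adjusted p = 0.261). *ISG15*, *HERC5* and *IFI6* were past the unadjusted threshold in each of the 6 fits that left out a line, and *IFI27* in 5 of them, all but that without KO replicate 3. *HERC5*, *IFI6* and *IFI27* are among the genes that passed the filter through 1 group.

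*IFI44* had the largest log2 fold change of the tested members, 1.71, but also a large standard error (0.77, adjusted p = 0.308). Its values were 2.30, 3.46 and 0.883 FPKM in WT and 8.13, 23.7 and 2.06 FPKM in KO, so that KO replicate 3 lay within the WT range. *NMI* and *IFI35*, which encode interacting cytoplasmic proteins, had 17.1 ± 4.10 and 14.2 ± 8.45 FPKM in WT and 18.4 ± 2.24 and 14.7 ± 2.71 FPKM in KO lines (SD, n = 3), with no difference beyond the spread. In *NMI*, the most abundant of the group, the single values were 15.3, 21.8 and 14.3 FPKM in WT and 16, 20.4 and 18.6 FPKM in KO (log2 fold change 0.12, SE 0.20, adjusted p = 0.778, and -0.01 with quantile normalization).

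**Figure D2:**
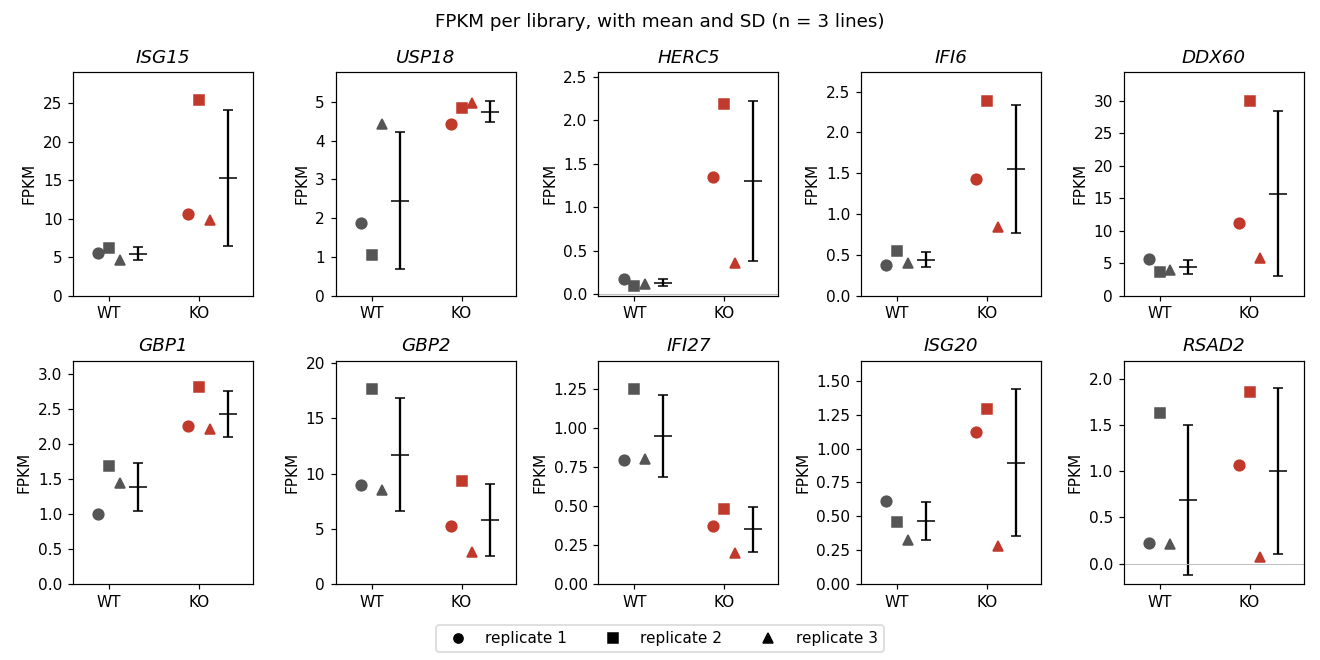
FPKM (y axis, linear) in each WT (grey) and KO (red) line for the 8 members past the unadjusted threshold and for *ISG20* and *RSAD2*, with marker shape for the replicate number and bars for mean and SD (n = 3 lines). The KO points of *ISG15*, *USP18*, *HERC5*, *IFI6*, *DDX60* and *GBP1* all lie above the WT points, and those of *IFI27* below them.

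Among enzymes that act on RNA and nucleotides, 8 of 9 members had a positive log2 fold change, also under the 4 other scalings, and 1 was past the unadjusted threshold, the putative RNA helicase gene *DDX60* (ENSG00000137628, chromosome 4 from 168216291 to 168318883). It was at 5.6, 3.71 and 3.97 FPKM in WT and at 11.2, 30 and 5.83 FPKM in KO. KO replicate 3 was only just above WT replicate 1, and the log2 fold change was 1.43 (SE 0.51, adjusted p = 0.261), or 0.82 to 1.96 with 1 line left out. It was past the unadjusted threshold in 4 of these 6 fits, not without WT replicate 2 or 3. *DDX60L*, its relative 37.9 kb away, had a mean of 6.81 ± 0.276 FPKM in WT against 8.25 ± 1.25 FPKM in KO (SD, n = 3). *ISG20* (ENSG00000172183), an exonuclease gene, was at 0.612, 0.458 and 0.329 FPKM in WT and at 1.12, 1.29 and 0.279 FPKM in KO. KO replicates 1 and 2 were above all WT lines and KO replicate 3 was below them (log2 fold change 0.45, SE 0.36, adjusted p = 0.533).

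*RSAD2* (ENSG00000134321), which encodes viperin, an enzyme that makes a chain-terminating nucleotide, was at 0.222, 1.63 and 0.217 FPKM in WT and at 1.07, 1.86 and 0.069 FPKM in KO. The highest and the lowest line were both KO lines, 26.9-fold apart (log2 fold change 0.31, SE 0.62, adjusted p = 0.818), and without KO replicate 2 the log2 fold change was -0.13. *CMPK2*, which lies beside *RSAD2* on the other strand and encodes a nucleotide kinase, had a mean of 0.321 ± 0.296 FPKM in WT against 0.753 ± 0.397 FPKM in KO (SD, n = 3). The antiviral kinase gene *EIF2AK2* (PKR) had a mean of 13.7 ± 1.13 FPKM in WT against 16.9 ± 2.48 FPKM in KO, with all KO lines above the WT lines. *RNF213*, a large ubiquitin ligase gene and the most abundant of the group, was at 37.4, 58.9 and 32.1 FPKM in WT and at 25.1, 40.2 and 29.2 FPKM in KO. It was the only gene of the group with a negative log2 fold change (-0.41, SE 0.26, adjusted p = 0.439), and its groups overlapped.

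The 3 guanylate-binding protein genes, which lie together on chromosome 1 and encode GTPases that act on intracellular pathogens, had opposite signs, which the 4 other scalings kept. *GBP1* (ENSG00000117228, from 89051882 to 89065360) was at 1.01, 1.69 and 1.45 FPKM in WT and at 2.26, 2.81 and 2.21 FPKM in KO. The groups did not overlap (log2 fold change 0.65, SE 0.22, adjusted p = 0.261). *GBP2* (ENSG00000162645, from 89106132 to 89150456), 40.8 kb further along, was at 8.99, 17.6 and 8.56 FPKM in WT and at 5.25, 9.33 and 2.93 FPKM in KO. The KO mean was lower, but KO replicate 2 lay above WT replicates 1 and 3 (log2 fold change -1.0, SE 0.42, adjusted p = 0.290). *GBP3*, the most abundant of the group, had 25.7, 30.1 and 24.0 FPKM in WT and 18.5, 28.8 and 18 FPKM in KO (log2 fold change -0.31, SE 0.21, adjusted p = 0.458). KO replicate 2 was again inside the WT range. With 1 line left out, *GBP1* was past the unadjusted threshold in 4 of 6 fits (not without WT replicate 1 or KO replicate 2) and *GBP2* in 2 of 6 (only without WT replicate 3 or KO replicate 2).

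The 4 *IFIT* genes, whose products bind viral RNA, lie together on chromosome 10. All had a positive log2 fold change, also under the 4 other scalings, with a median of 0.44, and 0 of 4 were past the unadjusted threshold. *IFIT2*, the most abundant, was at 9.53, 27.5 and 4.32 FPKM in WT and at 10.4, 32.4 and 6.21 FPKM in KO. The lines ran from low to high over the same range in both genotypes, with replicate 2 highest in each (log2 fold change 0.28, SE 0.74, adjusted p = 0.869, but -0.32 without WT replicate 3 and -0.37 without KO replicate 2). *IFIT3* showed the same order within WT, with 7.31, 18.6 and 3.13 FPKM, and had 7.13, 29.0 and 7.98 FPKM in KO. *IFIT1* had a mean of 2.28 ± 1.2 FPKM in WT against 4.34 ± 3.07 FPKM in KO, and *IFIT5* one of 8.78 ± 2.40 against 9.88 ± 3.75 FPKM (SD, n = 3). The 463 tested genes on chromosome 10 had a median under that of the library in the KO lines (-0.43, -0.16 and -0.19 on the log2 scale, against 0.02, 0.14 and -0.16 in the WT lines). With the chromosome medians removed, the log2 fold changes were 0.97 for *IFIT1*, 0.54 for *IFIT2*, 0.87 for *IFIT3* and 0.39 for *IFIT5*, and *IFIT1* was then past the unadjusted threshold (adjusted p = 0.287).

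The *IFITM* genes, which encode membrane proteins that hinder the fusion of viruses with cells, were the most abundant group, and their values overlapped between WT and KO. *IFITM3* had 298, 468 and 245 FPKM in WT and 342, 365 and 382 FPKM in KO (log2 fold change 0.16, SE 0.24, adjusted p = 0.748, and -0.04 without WT replicate 3). The KO lines lay inside the WT range. *IFITM2* was nearly constant, with 125 ± 1.25 FPKM in WT and 119 ± 11.4 FPKM in KO (SD, n = 3). *IFITM1* was at 37.1, 105 and 27.8 FPKM in WT, highest in replicate 2, and at 41.3, 46.2 and 36.6 FPKM in KO. The 3 genes are close in sequence, so that reads may be divided unevenly among them. *MX1*, which encodes a dynamin-like GTPase that traps viral nucleocapsids, was at 0.688, 1.07 and 0.467 FPKM in WT and at 1.25, 2.85 and 0.876 FPKM in KO. KO replicate 3 lay below WT replicate 2 (log2 fold change 0.72, SE 0.37, adjusted p = 0.356). The log2 fold change was 0.35 without KO replicate 2, and removal of the chromosome medians (*MX1* is on chromosome 21) gave 0.42.

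The *PARP* group, with ADP-ribosyltransferase genes, the PARP9 partner *DTX3L* and the RNA-binding protein gene *ZC3HAV1* (ZAP), had a median log2 fold change of 0.09, equal to that of all tested genes, with 5 of 6 genes higher in KO, or 2 of 6 with median-of-ratios scaling. *DTX3L*, the most abundant, was at 20.8, 28.8 and 17.3 FPKM in WT and at 20.7, 23.1 and 23.7 FPKM in KO (log2 fold change 0.04, SE 0.20, adjusted p = 0.926, and -0.07 with median-of-ratios scaling). *PARP9*, which overlaps it on the other strand, had a mean of 15.3 ± 2.74 FPKM in WT against 16.5 ± 2.53 FPKM in KO (SD, n = 3). *PARP14*, *PARP10* and *PARP12* were 2.78- to 4.56-fold apart among the WT lines and 1.23- to 1.99-fold apart among the KO lines. In each of the 3 genes WT replicate 2 was the highest and WT replicate 3 the lowest of the 6 lines.

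The *TRIM* genes encode ubiquitin ligases and related proteins, among them the RIG-I activator TRIM25, the antibody receptor TRIM21 and PML of nuclear bodies. *TRIM25* was at 69.6, 79.2 and 59 FPKM in WT and at 71.4, 86 and 118 FPKM in KO, with overlapping groups (log2 fold change 0.38, SE 0.21, adjusted p = 0.380). *TRIM14*, an adaptor at mitochondria, had 40.9, 45.9 and 34.5 FPKM in WT and 47.6, 54.1 and 63.2 FPKM in KO. All KO lines were higher, but its log2 fold change of 0.44 was under the minimum of 0.5 (SE 0.17, adjusted p = 0.271). *TRIM22* had 6.26, 63.4 and 4.84 FPKM in WT and 7.85, 24.3 and 10.9 FPKM in KO. The WT lines were 13.1-fold apart, and the log2 fold change was 0.01 (SE 0.91, adjusted p = 0.997) and went from -0.64 to 1.15 with a line left out. *PML* had a mean of 57.7 ± 5.78 FPKM in WT against 56.9 ± 7.25 FPKM in KO, and *TRIM21* one of 19.9 ± 5.21 against 18.5 ± 4.47 FPKM (SD, n = 3).

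Of the membrane, trafficking and secreted proteins, *LGALS3BP* was the most abundant, with 152, 246 and 118 FPKM in WT and 160, 221 and 251 FPKM in KO (log2 fold change 0.34, SE 0.29, adjusted p = 0.569, and 0.10 without WT replicate 3 to 0.63 without WT replicate 2). *LY6E* was lowest in WT replicate 2, at 72.3 FPKM, unlike most members, against 136 and 192 FPKM in the other WT lines and 169, 169 and 222 FPKM in KO. The scramblase gene *PLSCR1* had a mean of 45.1 ± 4.48 FPKM in WT against 56.1 ± 5.66 FPKM in KO (SD, n = 3), with all KO lines above the WT lines. *RTP4* was at 2.41 FPKM in WT replicate 2 and at 0.140 to 0.325 FPKM in the other 5 lines. Without WT replicate 2 its log2 fold change turned from -0.56 to 0.12.

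Among the genes of nuclear bodies and transcription, *SP100* was at 24.3, 28.5 and 20.8 FPKM in WT and at 23.2, 25.5 and 19.1 FPKM in KO, with overlapping groups (log2 fold change -0.11, SE 0.17, adjusted p = 0.751). *IRF7*, the factor that amplifies interferon production, had a mean of 7.95 ± 2.84 FPKM in WT against 7.90 ± 0.794 FPKM in KO, and *SP110* 6.41 ± 1.18 and 7.74 ± 1.06 FPKM (SD, n = 3). In the remaining group *SAMD9*, whose product restricts poxviruses, was at 48.1, 42.7 and 54.7 FPKM in WT and at 53, 39.8 and 27.7 FPKM in KO (log2 fold change -0.31, SE 0.24, adjusted p = 0.516). KO replicate 3 was the lowest. The aminopeptidase gene *LAP3* had a mean of 23.5 ± 1.84 FPKM in WT against 29.2 ± 4.10 FPKM in KO, with no overlap. *SAMD9L*, *XAF1* and *EPSTI1* overlapped between the groups, and each was highest in replicate 2 of its genotype.

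**Figure D3:**
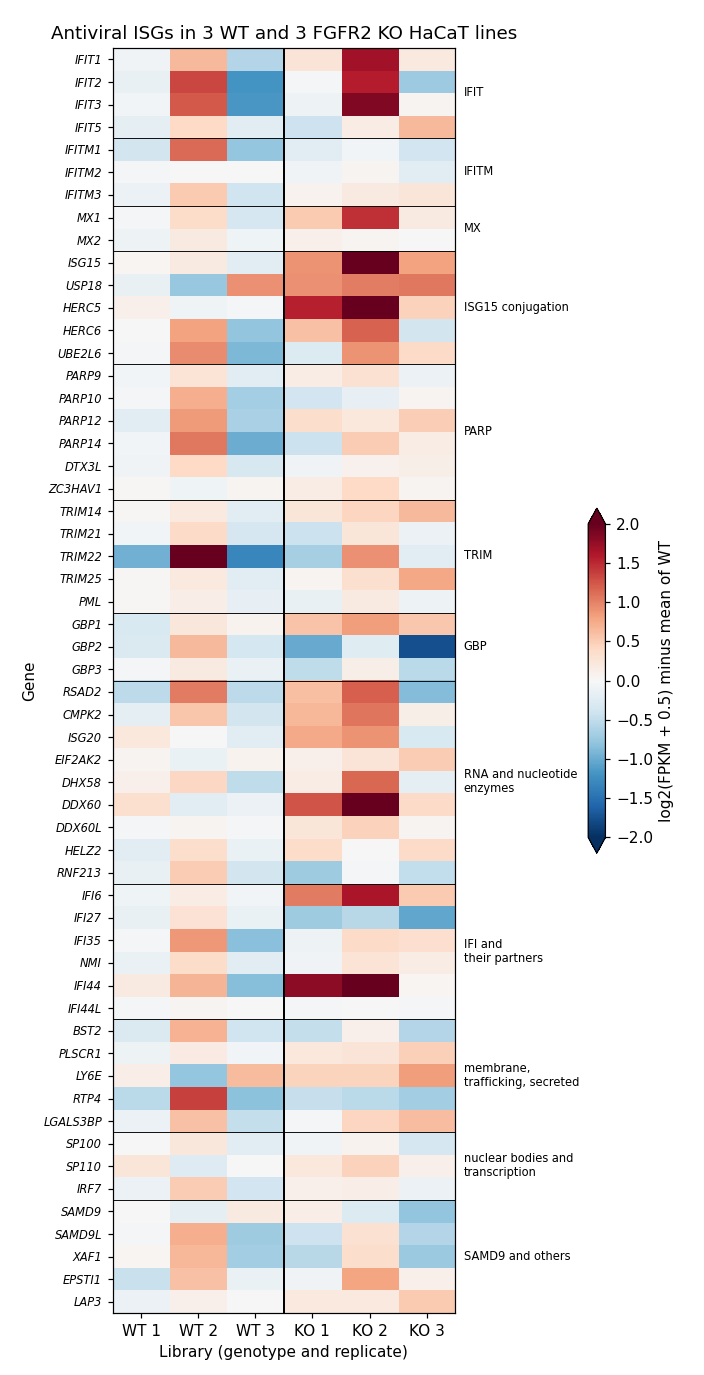
Log2(FPKM + 0.5) of each of the 56 members (rows) in each library (columns), as the difference from the mean of the 3 WT lines, in functional groups, with colours limited to -2 and 2. Red runs through the column of WT replicate 2 and that of KO replicate 2, and in KO replicate 1 it is strong for *HERC5*, *DDX60*, *IFI6* and *IFI44*.

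The lines differed in their ISGs within each genotype. The median SD within a genotype was 0.483 on the log2 scale for the 53 tested members and 0.237 for all tested genes. The WT lines were more than 2-fold apart in 24 members (45.3%, against 14.0% of all tested genes) and the KO lines in 20 (37.7% against 15.3%). Of the WT lines, replicate 2 was the highest in 44 members (83.0%, against 46.0% of all tested genes) and replicate 3 the lowest in 36 of 53 (against 30.9% of all tested genes). Of the KO lines, replicate 2 was the highest in 37 members (69.8% against 26.8%). Both held at once for 32 members (60.4%, against 14.1% of all tested genes). In 17 of these 32, KO replicate 2 was above WT replicate 2, and in 15 it was below it. Set against the WT mean, the members' median was -0.06, 0.39 and -0.23 in the WT lines, and in the KO lines it was 0.10, 0.38 and 0.10 on the log2 scale. The median of all tested genes on this scale was -0.04, 0.03 and 0.02 in the WT lines and 0.10, 0.05 and 0.15 in the KO lines. Of the KO lines, only replicate 2 thus had a members' median above that of all tested genes.

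The members divided by how WT replicate 2 and KO replicates 1 and 2 stood. *IFIT2*, *UBE2L6*, *TRIM22* and *PARP14* were high in WT replicate 2 and in KO replicate 2. *IFITM1*, *RTP4*, *PARP10* and *PARP12* were highest in WT replicate 2. *HERC5*, *DDX60*, *IFI6*, *IFI44* and *ISG15* were higher in KO replicates 1 and 2 than in any WT line, WT replicate 2 included. These sets were named after their values were seen and are given as a description. WT replicate 2 also had the highest summed FPKM of 8 fibroblast markers (33.8, against 8.35 to 15.6 in the other lines), of 8 leukocyte markers (23.5 against 5.33 to 13.2) and of 4 melanocyte markers (2.44 against 0.708 to 1.07). These sums came largely from *DCN* (15.5 FPKM in WT replicate 2, against 0.0268 to 1.66 in the other lines), *COL1A1* (16.7 against 6.82 to 15), *CD68* (20.4 against 4.41 to 11.6) and *PMEL* (2.43 against 0.697 to 1.07). *CD14* (1.62 FPKM against 0.662 to 0.794) and *ITGAM* (1.01 against 0.052 to 0.487) were also highest in WT replicate 2. *LUM* was at 0.903 FPKM there but at 1.85 FPKM in KO replicate 1, and *TWIST2* was highest in KO replicate 3 (1.64 FPKM). Other defining markers, *COL1A2*, *COL3A1*, *PTPRC* and *MLANA*, were between 0 and 0.153 FPKM in every line. The 6 markers of plasmacytoid and dendritic cells summed to at most 0.406 FPKM, in WT replicate 2. Of 4 endothelial markers, *CDH5* was at 4.92 FPKM in WT replicate 2 and at 0 to 0.128 FPKM elsewhere, *PECAM1* was highest there too (0.321 FPKM), *KDR* was listed at 0 in every line, and *VWF* was highest in WT replicate 3 (27.1 FPKM). The part of these markers in the ISG differences was not tested.

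Members lying within 200 kb of each other formed 16 neighbouring pairs of 27 genes, and neighbours did not always go together. *IFI44* and *IFI44L*, *HERC5* and *HERC6*, *DDX60* and *DDX60L*, and *GBP1* and *GBP2* had unequal levels or fold changes, as described above. *PARP9* and *DTX3L* (log2 fold changes 0.11 and 0.04) and *SAMD9* and *SAMD9L* (-0.31 and -0.23) had similar ones.

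The interferon pathway that feeds these genes was read from 4 lists with 28 genes in all. Of the 8 interferon genes listed, *IFNB1*, *IFNA1*, *IFNG* and *IFNL3* were listed at 0 in every library, and the summed level of all 8 was 0.133 to 0.170 FPKM in WT and 0.133 to 0.257 FPKM in KO lines. *IFNE* made up most of it in 5 of the 6 lines, while in KO replicate 2 it was at 0.0379 FPKM and *IFNL1* at 0.0541 FPKM. All 6 receptor genes were expressed. *IFNAR2*, a chain of the type I interferon receptor, had a mean of 4.20 ± 0.900 FPKM in WT against 7.37 ± 1.76 FPKM in KO (SD, n = 3) with a log2 fold change of 0.74 (SE 0.22, adjusted p = 0.261). The partner chain gene *IFNAR1* had a log2 fold change of 0.09. Of the transcription factor genes, *STAT2* was at 24.1 ± 2.71 FPKM in WT against 20.8 ± 4.37 FPKM in KO (log2 fold change -0.23, adjusted p = 0.550) and *IRF9* at 21.9 ± 6.69 against 16.3 ± 7.82 FPKM (-0.52, adjusted p = 0.527). *SOCS3*, a feedback inhibitor of cytokine receptors, had a mean of 1.16 ± 0.295 FPKM in WT against 2.28 ± 0.297 FPKM in KO (log2 fold change 0.76, SE 0.22, adjusted p = 0.261). *IFNAR2* and *SOCS3* were the only 2 of the 19 tested genes of these lists past the unadjusted threshold, both higher in KO, and 0 were lower. These 2 of 19 lie near the 10.2% of all tested genes higher in KO.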

How the data were processed

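RNA-seq libraries from 3 WT and 3 *FGFR2* KO HaCaT lines were analysed. As stated by the authors, poly(A)-selected, strand-specific paired-end reads were trimmed with fastp 0.20.0 and pseudoaligned with kallisto 0.46.1 to GRCh38.p13 with GENCODE models. The authors deposited FPKM values per gene, and how these were calculated is not given in the sources used here, nor is the strand setting, which matters for overlapping genes such as *CMPK2* and *RSAD2*. Of 21493 listed genes, 18 were Y copies and were left out. Symbols and positions came from GENCODE release 44. Of 5371 low values of genes with 1 transcript, 61.5% were whole fragments within 0.02 (4% by chance), so whole reads were not recovered and no count model was run.

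KO and WT were compared with limma 3.58.1 in R 4.3.3 (moderated test with a mean-variance trend, Benjamini-Hochberg adjustment over all 12241 tested genes) on log2(FPKM + 0.5), with the thresholds given above. The members and lists were chosen with earlier results of these data known. Values were given in full for *FGFR2*, *ISG15*, *ISG20*, *RSAD2*, members past the unadjusted threshold and the most abundant member of each functional group. Other genes shown in detail were chosen after their values were seen, and 1 gene of the pathway lists is not reported here. Alternatives were other pseudocounts, filters, scalings and empirical Bayes settings, a replicate block, library weights and leaving out each line.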

Additional observations from a re-analysis of the deposited data

How the results depend on the processing

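The count of called members was 0 in the analysis and in each alternative but 1. With library weights 7 members (*CMPK2*, *GBP1*, *HERC5*, *IFI44*, *IFI6*, *ISG15* and *USP18*) and 1396 of all tested genes were called, in a fit in which WT replicate 1 had 89.8% of the weight of its group and KO replicate 1 60.5%. The 6 members higher in KO at the unadjusted threshold became 3 when a mean of 2 FPKM was required (6.82% of members, against 10.7% of all genes). Fewer members were tested there. The count was 5 with no filter (8.93% against 6.06%) and with median-of-ratios scaling (9.43% against 6.42%). It was also 5 with quantile normalization (9.43% against 6.56%) and scaling to nuclear genes (9.43% against 7.6%). It was 10 with the replicate block (18.9% against 10.9%) and 11 with library weights (20.8% against 13.6%). The 2 lower members became 1 with no filter (1.79% of members, against 1.13% of all genes) and with the 2 FPKM minimum (2.27% against 2.4%). They also became 1 without the mean-variance trend (1.89% against 2.19%) and with chromosome medians removed (1.89% against 2.01%). In the latter, an alternative chosen after seeing the data, 7 members were higher (13.2% against 10.1%). With each line left out, 4 to 9 members were higher (7.55% to 17% of members, against 4.4% to 14.3% of all genes). Lower were 0 to 3 (0% to 5.66%, against 0.768% to 4.17%), and the median log2 fold change of the members went from 0.03 to 0.42 (0.06 to 0.11 for all tested genes). It was 0.15 to 0.30 in the other alternatives. The log2 fold change of *DTX3L* turned to -0.07 with median-of-ratios scaling, -0.07 with quantile normalization and -0.04 with scaling to nuclear genes, and that of *NMI* to -0.01 with quantile normalization. With a line left out it went from -0.37 to 0.95 for *IFIT2*, -0.04 to 0.42 for *IFITM3*, -0.12 to 0.81 for *UBE2L6*, -0.12 to 0.24 for *DTX3L* and -0.13 to 0.90 for *RSAD2*, with a change of sign, and, with no change of sign, from 0.92 to 2.54 for *IFI44*, 0.23 to 0.83 for *ISG20*, -0.60 to -0.16 for *RNF213*, 0.19 to 0.55 for *TRIM25* and -0.53 to -0.07 for *SAMD9*. With a line left out, further members passed the unadjusted threshold. They were *IFI44*, *ISG20* and *MX1* without KO replicate 3, and *TRIM14*, *TRIM25* and *SAMD9* (lower in KO) without KO replicate 1. Without KO replicate 2 it was *GBP3* (lower in KO), and without WT replicate 3 *LY6E*. Without WT replicate 2 they were *CMPK2*, *LGALS3BP*, *PARP12*, *TRIM14* and *TRIM22*. The causes were not tested. WT and KO libraries with the same replicate number did not deviate together throughout (correlation of deviations across genes -0.206, 0.225 and 0.049), and not every library correlated best with its own number, so the numbers were not taken as pairs, and with the replicate block the smallest adjusted p of a member was 0.108. At the estimated depth *IFI44L* lay at or under about 3 fragments per kb in most libraries. The effect of depth on the other members was not tested.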
